A study of Mus musculus with 6 samples.

Results

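The genes described here are 10 markers and regulators of bile duct formation: Jag1, Notch2, Hes1, Sox9, Sox4, Elf3, Krt7, Krt19, Pkhd1 and Spp1. They were taken by symbol, as every probe set to which the array annotation gives exactly 1 gene symbol and that symbol is one of the 10. This gave 21 probe sets for 9 of the genes, among 45037 probe sets tested, while Spp1, the gene of osteopontin, had none and was not analysed here. The arrays measured total RNA of whole livers of mouse fetuses at E18.5, at the end of gestation. In the 3 null livers (Null_61, Null_1191 and Null_1195, as in their titles) both Hnf4 alleles carry loxP sites and the AlfpCre transgene is present. In the 3 control livers (Control_8, Control_1192 and Control_1193) 1 allele carries loxP sites, the other is unflanked, and AlfpCre is present too, so all 6 livers express Cre and no liver without it was compared. AlfpCre is driven by albumin and alpha-fetoprotein regulatory elements and so acts in the hepatoblast lineage, and blood, endothelial and mesenchymal cells of the organ contribute RNA to every array.

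Hepatocytes and cholangiocytes, the cells that line bile ducts, both arise from hepatoblasts in the fetal liver. Next to the portal veins, the ligand JAG1 on mesenchymal cells binds the receptor NOTCH2 on neighbouring hepatoblasts, whose intracellular part is then cut free and joins the DNA-binding protein RBPJ to switch on targets such as Hes1 and Sox9. The cells that respond form the ductal plate and later make duct keratins and proteins of the primary cilium, and mutations of human JAG1 or NOTCH2 cause Alagille syndrome, in which bile ducts are too few. HNF4 alpha, the nuclear receptor encoded by Hnf4a, is known for driving the hepatocyte programme, so the comparison asks whether transcripts of the alternative fate moved when it was targeted.

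The arrays had medians of 91.8 to 99.6 intensity units and highest values of 12298 to 12608. Of all probe sets, 658 rose (1.46%) and 2501 fell (5.55%) in the null livers at an adjusted p under 0.05. These p-values come from limma with Benjamini-Hochberg adjustment over all probe sets. They set the difference between groups against the spread of arrays within a group, which limma moderates over all probe sets. The labels do not say how the livers relate by litter, so litter was not part of the fit. The targeted gene kept a clear signal. Hnf4a probe set 1421983_s_at read 793, 527 and 834 in Null_61, Null_1191 and Null_1195, against 1201, 1127 and 1135 in Control_8, Control_1192 and Control_1193 (log2 change -0.69, adjusted p = 0.0434). Of its other 3 probe sets, 1450447_at was called as well (adjusted p = 0.0488). The brightest, 1427001_s_at, read 1778, 1562 and 2778 in the nulls and 2607, 2817 and 2877 in the controls, with overlapping groups (adjusted p = 0.194). Probe set 1427000_at was lower in all nulls and not called (adjusted p = 0.0785). Which part of Hnf4a each probe set reads was not tested. The call of 1421983_s_at was lost without Null_1191 or any 1 control (adjusted p = 0.0694, 0.142, 0.14 and 0.126), and that of 1450447_at without Null_1191, Null_1195 or any 1 control (adjusted p = 0.161, 0.128, 0.157, 0.169 and 0.121). Both were also lost with quantile normalization (0.118 for 1421983_s_at and 0.13 for 1450447_at), a pseudocount of 1 (0.0524 and 0.0509), no intensity trend (0.0619 and 0.0653) and embryo sex as a term (0.111 and 0.126), the first in the 4 arrays of the second run (0.0506) and the second with centred array medians (0.064). Null_1191 had the lowest null value in all 4 Hnf4a probe sets. The hepatocyte product albumin read 10651 ± 460 in null livers and 10532 ± 270 in control livers (SD, n = 3 each), and was the only one of 8 hepatocyte markers that did not fall. Its readings ran from 10165 to 11079, near the highest values of the arrays, and whether a ceiling hid a fall was not tested. Null_61 and Control_8 stood apart from the rest, with 33.5 in Null_61 and 42.1 in Control_8 at the array's 5' control for 18S ribosomal RNA, against 449 to 616 on the other 4 arrays, and they belong to another run of title numbers. The labels do not call that run a batch, so changes are given within each run where it matters. By Xist and Y-linked transcripts, Null_61 was male and Control_8 female, while Null_1191 and Null_1195 were female and Control_1192 and Control_1193 male. Within a run, genotype and sex therefore cannot be told apart, and the sexes are reversed between the runs, so a difference between runs is also one of sex.

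None of the 21 probe sets passed the test. With limma 0 rose and 0 fell, where 7.01% of all probe sets were called, and the smallest adjusted p was 0.0942. At an unadjusted p under 0.05 there were 3 (14.3%), 1 higher and 2 lower, against 21.2% of all probe sets. The log2 changes ran from -0.48 to 0.47, and their median size without regard to sign was 0.21, against 0.19 over all probe sets. The 3 null livers lay wholly above the 3 controls in 4 member probe sets and wholly below them in 3. Together that is 33.3% of the members, and 27.4% of all probe sets had groups that do not overlap (13.6% higher, 13.8% lower), so this count is near the background.

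On the scale of the test, log2(intensity + 32), the spread of the arrays still bounds the size of a change. The 95% interval of the log2 change lay within a 2-fold change in either direction for 20 of the 21 member probe sets, and for 89.5% of all probe sets. The exception was 1419156_at of Sox4, whose interval reached 2.03-fold higher. With a pseudocount of 1 only 10 of 21 member intervals lay within 2-fold, against 28345 of 45037 over all probe sets. The intervals reported, like all fold changes given, hold on the scale of log2(intensity + 32), which shrinks changes of dim probe sets. Many of the genes were dim: 12 probe sets had means of both groups at or below 99.6, the highest array median, and 7 had both above it. Among the members, fold ratios on that scale are given only for those 7. In these whole livers fewer cells of a type and less RNA per cell cannot be told apart.

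**Figure D1:**
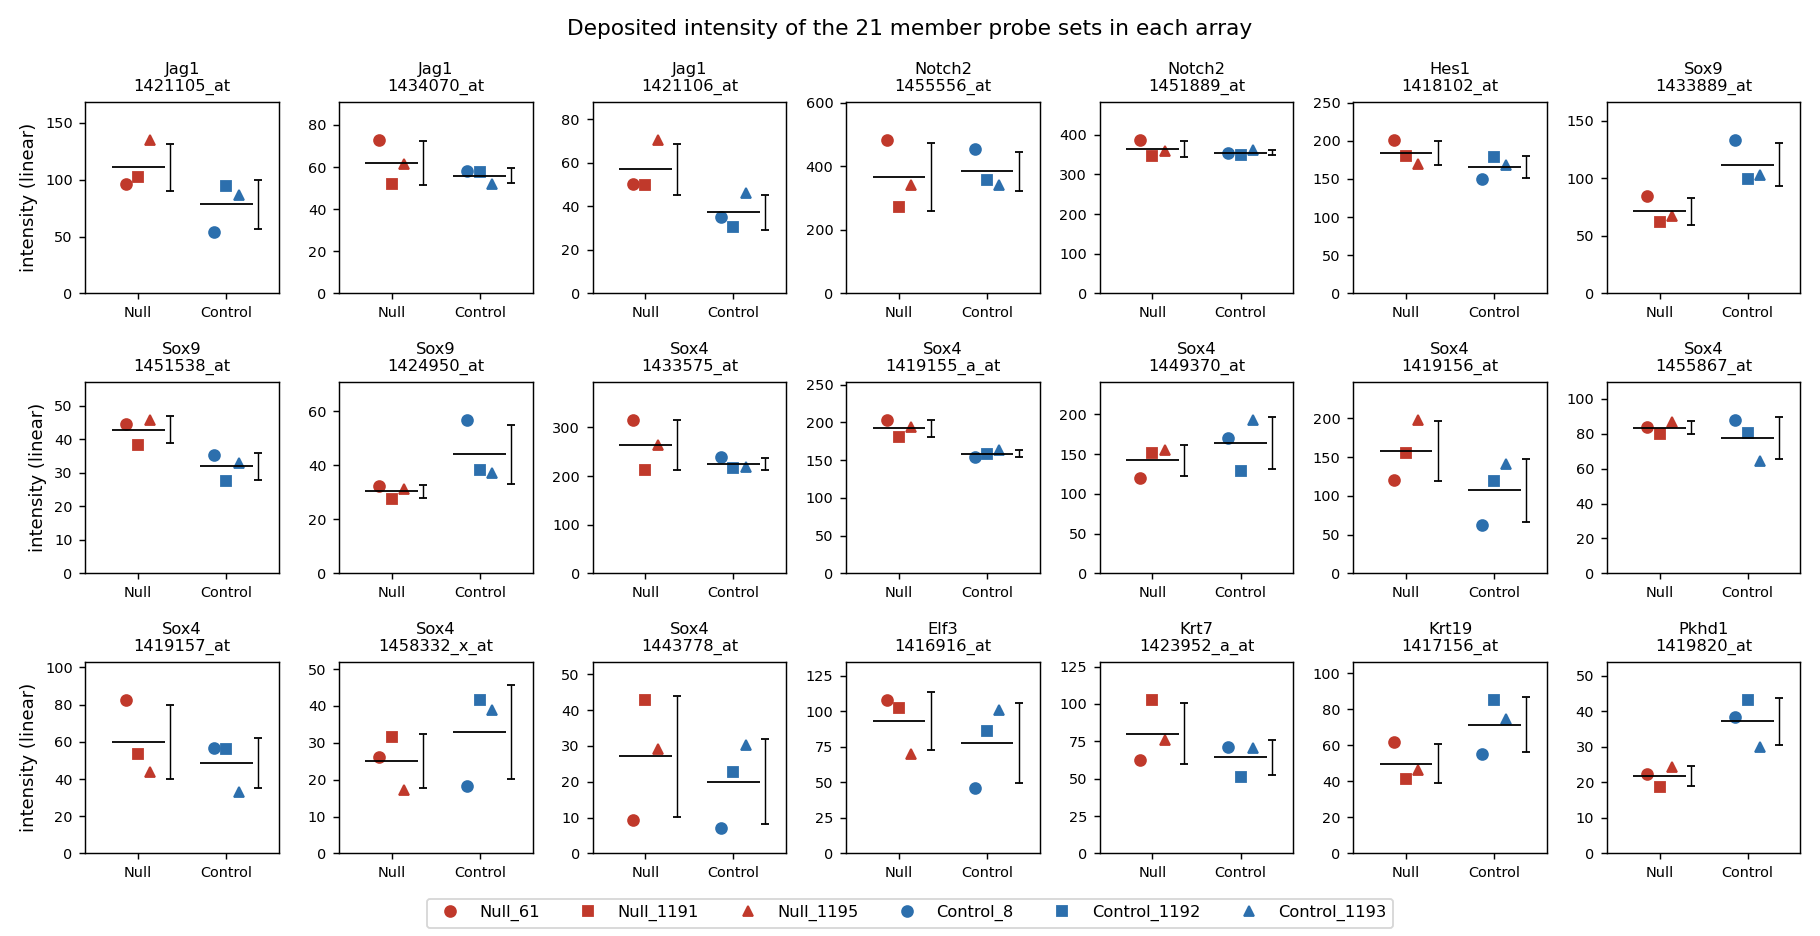
Deposited intensity (linear axis from 0) of each of the 21 member probe sets in the 3 null arrays (red, left) and the 3 control arrays (blue, right). Horizontal lines are group means and bars to the right are SD. In Sox9 1433889_at all null arrays lie below all controls, while in Notch2 1451889_at the groups overlap closely.

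The ligand Jag1, which the portal mesenchyme presents to hepatoblasts, was read by 3 probe sets, and all 3 had higher means in null livers without passing the test. Probe set 1421105_at read 95.8, 102 and 135 in Null_61, Null_1191 and Null_1195, against 54.2, 94.9 and 86.2 in Control_8, Control_1192 and Control_1193. The groups did not overlap, but the lowest null and the highest control lay within 1 unit of each other (log2 change 0.38, 95% interval -0.02 to 0.79, adjusted p = 0.264). Probe set 1421106_at read 50.4, 49.9 and 70.3 in the nulls and 35.2, 30.4 and 46.0 in the controls. There too all nulls were above all controls (log2 change 0.36, interval 0.01 to 0.71, adjusted p = 0.221), and the difference had the same sign within each number run, at 0.30 for Null_61 against Control_8 and 0.39 for the other 4 arrays. These 2 probe sets were designed from the same sequence record, so they are not independent readings of Jag1. The probe set 1434070_at read 72.8, 52.1 and 61.2 in null livers and 58.3, 57.4 and 52.0 in control livers, with overlapping groups (log2 change 0.09, adjusted p = 0.734).

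The receptor Notch2 had the tightest bound among the members. Probe set 1451889_at read 386, 347 and 359 in the null arrays and 354, 348 and 361 in the control arrays. The groups overlapped, with a 1.02-fold ratio and an interval of 0.864-fold to 1.21-fold (adjusted p = 0.89). The second probe set, 1455556_at, read 483, 273 and 343 in the nulls against 455, 357 and 341 in the controls. Here Null_61 and Control_8, the arrays of the first number run, were the highest of their groups, and the 0.94-fold ratio had an interval of 0.688-fold to 1.29-fold (adjusted p = 0.84).

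Hes1, the transcriptional repressor that Notch signalling switches on in hepatoblasts, read 201, 180 and 170 in Null_61, Null_1191 and Null_1195, against 150, 179 and 169 in Control_8, Control_1192 and Control_1193. Null_61 and Null_1191 lay above every control and Null_1195 did not, so the groups overlapped. The ratio was 1.09-fold with an interval of 0.9-fold to 1.32-fold (adjusted p = 0.607). Within the runs, the log2 difference was 0.35 for Null_61 against Control_8 and 0.0093 for the other arrays.

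Sox9, the earliest known transcription factor of the ductal plate, gave readings that went in opposite directions. Probe set 1433889_at read 84.6, 61.9 and 66.9 in Null_61, Null_1191 and Null_1195, against 133, 99.8 and 102 in Control_8, Control_1192 and Control_1193. All 3 nulls were below all 3 controls, by -0.48 on the log2 scale (standard error 0.14, interval -0.81 to -0.15), and this was the smallest adjusted p among the members, at 0.0942. The difference was -0.50 within the first number run and -0.47 within the second. Probe set 1424950_at read 32.3, 27.7 and 31.3 in the nulls and 56.8, 38.4 and 37.1 in the controls, again with all nulls lower (log2 change -0.28, adjusted p = 0.332). Probe set 1451538_at went the other way, reading 44.7, 38.3 and 45.7 in the nulls and 35.4, 27.5 and 32.8 in the controls, with all nulls higher (log2 change 0.23, adjusted p = 0.365). The last 2 were designed from 1 and the same sequence record, and their group means lie below the array medians, so the files give no single direction for Sox9.

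Whether 1433889_at is called depends on how the arrays are handled. With the number run as a block it fell with an adjusted p of 0.0202 (8.19% of all probe sets fell in that fit), with array weights 0.0344 (7.74%) and without Null_61 0.0415 (7.1%). It was not called in the 4 arrays of the second run alone (0.0747), with embryo sex as a term (0.171) or without any of the 5 arrays other than Null_61 (0.17 to 0.265). The log2 change stayed between -0.65 and -0.31 over the 15 alternatives that hold this probe set.

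**Figure D2:**
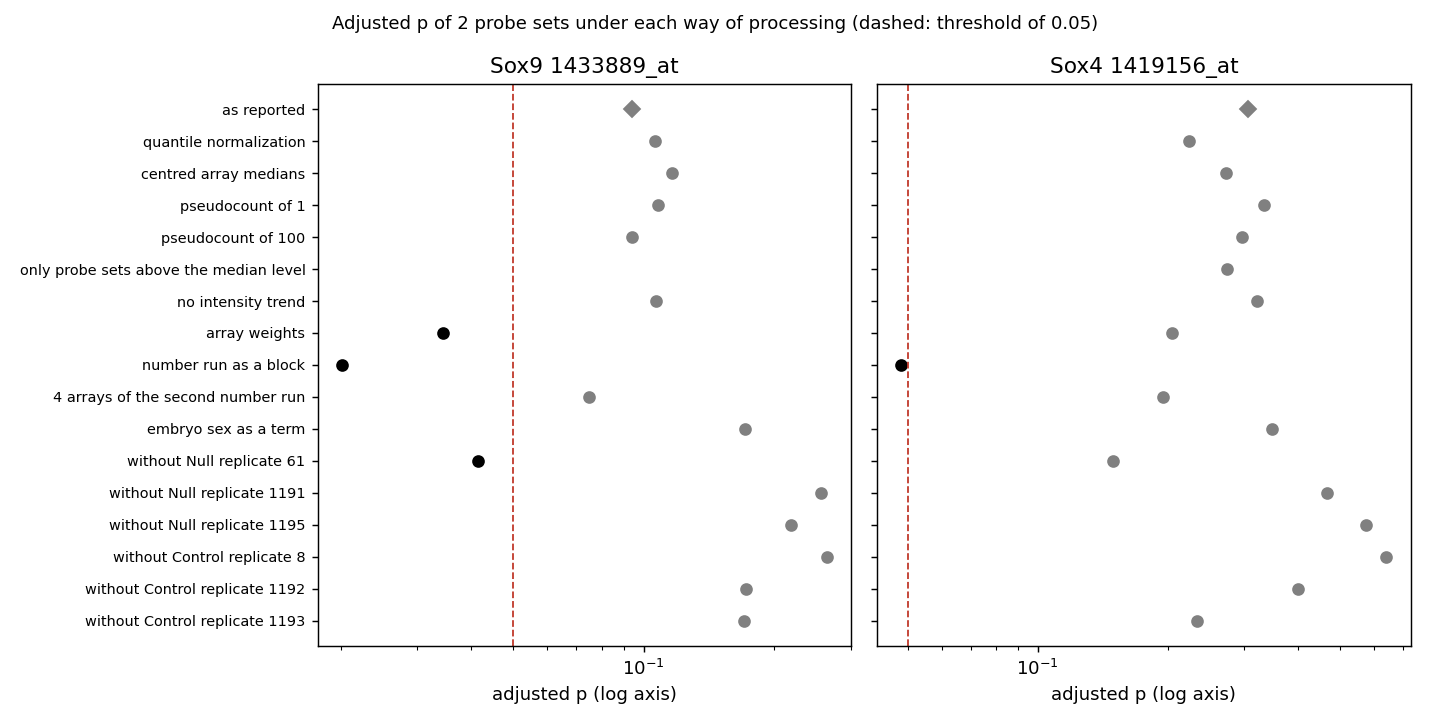
Adjusted p (log axis) of Sox9 1433889_at and Sox4 1419156_at under each way of processing, with the threshold of 0.05 dashed, black points below it and a diamond for the fit reported. Sox9 lies below the threshold under 3 alternatives and Sox4 under 1, the block for the number run. Sox9 has no point for the filter on level, which leaves its probe set out.

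Sox4, a transcription factor that acts beside Sox9 in duct formation and is also expressed in blood progenitors, was read by 8 probe sets, 6 with a higher and 2 with a lower mean in null livers. Of the 8, 4 come from 1 sequence record. The largest difference was in 1419156_at, which read 120, 156 and 198 in Null_61, Null_1191 and Null_1195, against 62.0, 119 and 141 in Control_8, Control_1192 and Control_1193. The groups overlapped and each group spread widely, so the 1.39-fold ratio had an interval of 0.949-fold to 2.03-fold (adjusted p = 0.307). Probe set 1419155_a_at was the only one of the 8 without overlap, reading 203, 181 and 194 in the nulls and 154, 159 and 163 in the controls. Its ratio was 1.18-fold (interval 0.988-fold to 1.40-fold, adjusted p = 0.268), with log2 differences of 0.34 and 0.19 within the first and second number run. Probe set 1433575_at read 315, 213 and 264 in the nulls and 239, 217 and 219 in the controls (1.14-fold, adjusted p = 0.506). By contrast 1449370_at, from the same record as 1419156_at, read 120, 151 and 156 in the nulls and 170, 128 and 193 in the controls (0.895-fold, adjusted p = 0.61). The other 4 Sox4 probe sets had all group means below the array medians, log2 changes from -0.18 to 0.18 and overlapping groups. With the number run as a block, 1419156_at rose with an adjusted p of 0.0484 (4.14% of all probe sets rose in that fit), and without Control_8 its log2 change was 0.21 in place of 0.47.

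Elf3, an epithelial transcription factor of the ETS family, read 108, 102 and 70.0 in Null_61, Null_1191 and Null_1195, against 46.3, 86.2 and 101 in Control_8, Control_1192 and Control_1193. The groups overlapped, with a log2 change of 0.21 (interval -0.27 to 0.70, adjusted p = 0.616). The difference was 0.84 for Null_61 against Control_8 and -0.10 in the other 4 arrays.

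RefSeq promoter windows (build GRCm38.p6) were found for 7 of the 10 genes, namely Jag1, Notch2, Sox4, Elf3, Krt7, Pkhd1 and Spp1, the last with 2, and not for Sox9, Hes1 and Krt19. The 250 bases before each gene start were searched on both strands for TGGGAA, the core of the RBPJ motif, which does not overlap the other motif searched. It was present for 2 of the 7 genes, and 21.6% of the 32851 windows of all genes hold it, so this count is near the background. CAAAGTCCA, a motif preferred by HNF4 alpha, was in 0 of the 8 member windows and in 0.384% of all windows. The matches are shown for Sox4 and Elf3, the members whose windows hold these 6 letters. The bases beside the 6 letters were not part of the search. Each stretch is written 5′ to 3′ on the gene's strand, the minus strand in both genes, with the 6 matching bases in capitals. The Sox4 stretch lies at chr13:28953764-28953829 and its match begins 100 bases before the gene start, in the forward orientation. The Elf3 stretch lies at chr1:135258629-135258694 and its match begins 192 bases before the gene start, in the reverse orientation.
Sox4: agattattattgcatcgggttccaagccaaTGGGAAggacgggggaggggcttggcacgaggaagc
Elf3: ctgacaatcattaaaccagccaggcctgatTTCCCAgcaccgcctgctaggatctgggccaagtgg
A match is a run of letters and not a shown binding site, and neither gene passed the test.

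The mean changes of the 2 duct keratins had opposite signs, but neither passed the test and both turned sign between the number runs. Krt19, the keratin that marks the ductal plate and mature ducts, read 61.9, 41.5 and 46.1 in Null_61, Null_1191 and Null_1195, against 55.0, 85.1 and 74.6 in Control_8, Control_1192 and Control_1193. Null_1191 and Null_1195 lay below every control, and Null_61 lay above Control_8 (log2 change -0.34, interval -0.70 to 0.03, adjusted p = 0.271). Within the runs the difference was 0.11 for Null_61 against Control_8 and -0.56 for the other 4 arrays, and in these 4 alone the adjusted p was 0.0529. Krt7, a keratin of more mature ducts, read 62.4, 103 and 75.7 in the nulls and 71.0, 51.0 and 70.7 in the controls. Its groups overlapped (log2 change 0.21, interval -0.16 to 0.59, adjusted p = 0.506). The difference for Krt7 was -0.13 for Null_61 against Control_8 and 0.38 for the other 4 arrays.

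Pkhd1 encodes fibrocystin, a protein of the primary cilium of duct cells that is mutated in recessive polycystic kidney disease. It read 22.3, 18.8 and 24.4 in Null_61, Null_1191 and Null_1195, against 38.3, 43.2 and 30.1 in Control_8, Control_1192 and Control_1193. All 3 nulls were below all 3 controls, and the log2 change of -0.36 (standard error 0.15, interval -0.69 to -0.03) was -0.37 and -0.35 within the number runs. It did not pass the test (adjusted p = 0.199), and every reading was far below the array medians.

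**Figure D3:**
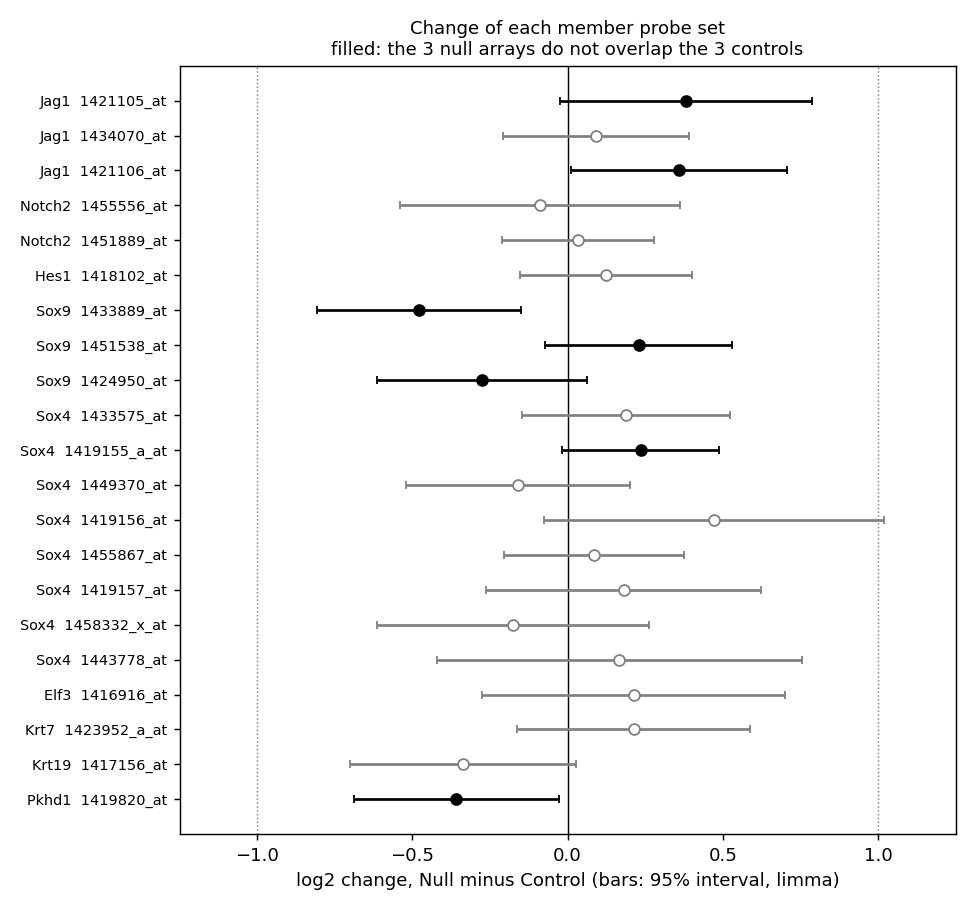
Log2 change, null minus control, of each member probe set with its 95% interval from limma. Filled points mark probe sets whose 3 null arrays do not overlap the 3 controls, and dotted lines mark a 2-fold change in either direction. The changes run from -0.48 to 0.47.

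The null livers differed among themselves. Null_1191 had the lowest null value in 12 of the 21 member probe sets, Null_61 in 5 and Null_1195 in 4. The same count over all probe sets was not made, and several member probe sets share a sequence record. A link of this count to the Hnf4a readings was therefore not tested. Null_61 had the highest in 11. Against the control mean, the median log2 difference over the member probe sets was 0.17 for Null_61, 0.04 for Null_1191 and 0.03 for Null_1195. When each number run was taken by itself, 10 probe sets were higher in both runs, 4 lower in both, and 7 had opposite signs.

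Other genes of the Notch pathway were read by gene, with the brightest probe set standing for each. The median log2 change of all 18193 genes was 0.0067, with 1.56% called higher and 7.85% called lower. Of 8 other ligands and receptors 1 rose, 0 fell and the median was 0.02. The gene that rose was Dlk1, whose product is an atypical Notch ligand made by hepatoblasts, at 5993, 5285 and 5828 in Null_61, Null_1191 and Null_1195, against 2672, 1620 and 2521 in Control_8, Control_1192 and Control_1193. All nulls were above all controls, 2.54-fold (log2 change 1.35, standard error 0.18, adjusted p = 0.00184), while its dim other probe set 1442724_at was not called (adjusted p = 0.305). Jag2, Dll1, Dll3, Dll4, Notch1, Notch3 and Notch4 were not called, with log2 changes from -0.21 to 0.18.

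Of 9 other genes listed as Notch targets, 0 rose and 0 fell. They were Hes5, Hes6, Hes7, Hey1, Hey2, Heyl, Nrarp, Ccnd1 and Myc. Their median was 0.18, with a range of -0.14 to 0.28, and the groups did not overlap in 1 of the 9, Nrarp, where 13.2% of all genes did so upward and 17.9% downward. Nrarp, a feedback inhibitor induced by Notch, averaged 108 ± 17.9 in null livers and 83.6 ± 6.31 in control livers (SD, n = 3 each, adjusted p = 0.282). Of 10 genes that process the receptor or form the transcription complex, 1 fell, 0 rose and the median was -0.02. That gene was Psen2, a catalytic subunit of gamma-secretase, which read 154, 171 and 187 in the nulls and 273, 269 and 276 in the controls (log2 change -0.59, adjusted p = 0.0165). Its call was lost without Null_1191, Control_8, Control_1192 or Control_1193 (adjusted p = 0.0614, 0.0633, 0.0751 and 0.076). The other Psen2 probe set, 1431542_at, went the other way and was not called. It averaged 69.8 ± 17.9 in null livers and 57.7 ± 1.43 in control livers, with overlapping groups (adjusted p = 0.582). Rbpj itself averaged 291 ± 77.7 in null livers and 340 ± 30.3 in control livers (adjusted p = 0.517).

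Of 12 modulators of Notch, 2 fell, 0 rose and the median was 0.22. Dtx1, a ubiquitin ligase that binds the Notch receptor, read 373, 389 and 315 in Null_61, Null_1191 and Null_1195, against 889, 969 and 894 in Control_8, Control_1192 and Control_1193. All nulls were below all controls (log2 change -1.28, standard error 0.12, adjusted p = 2.22e-04), but its second probe set, 1425822_a_at, was higher in the nulls, at 166 ± 9.22 against 134 ± 19.4 (adjusted p = 0.293). Numb, an inhibitor that removes Notch from the cell surface, read 159, 134 and 136 in the nulls and 226, 233 and 206 in the controls (log2 change -0.54, adjusted p = 0.0297). Its second probe set, 1425368_a_at, averaged 147 ± 6.66 in null livers and 179 ± 38.2 in control livers, with overlapping groups (log2 change -0.22, adjusted p = 0.425). The call of the first was lost without any 1 array other than Null_61 (adjusted p = 0.0737 to 0.132), with quantile normalization (0.0558) and with embryo sex as a term (0.0857).

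Among 11 other transcription factors of duct development, 1 rose, 0 fell and the median was -0.08. Foxa1, a pioneer factor of liver and duct cells, read 250, 141 and 169 in the nulls and 73.3, 91.8 and 91.0 in the controls (log2 change 0.87, adjusted p = 0.0248). That call was lost without Null_1195, Control_8, Control_1192 or Control_1193 (adjusted p = 0.06, 0.0943, 0.0847 and 0.0748). Onecut1, which acts upstream of duct formation, averaged 94.3 ± 32.7 in null livers and 160 ± 56.4 in control livers (adjusted p = 0.234). Tbx3, a factor that favours the hepatocyte fate, averaged 383 ± 149 in null livers and 257 ± 68.4 in control livers (adjusted p = 0.397).

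Of 21 genes of the structure and transport of bile duct cells, 5 fell and 0 rose, with a median of 0.02. Cdh1, the gene of E-cadherin, which hepatocytes express too, read 33.4, 26.9 and 97.0 in Null_61, Null_1191 and Null_1195, against 790, 1042 and 970 in Control_8, Control_1192 and Control_1193 (adjusted p = 6.86e-05). Krt23, an inducible epithelial keratin, read 93.1, 79.8 and 73.8 in the nulls and 203, 306 and 285 in the controls (log2 change -1.36, adjusted p = 0.00103). Mal2, a protein of apical transport in hepatocytes and other epithelia, read 17.6, 25.3 and 63.8 in the nulls and 160, 163 and 177 in the controls (log2 change -1.61, adjusted p = 0.0027). The other 2 were Krt18 and Krt8, the keratin pair of simple epithelia and of hepatocytes, which lay outside the rule for named genes and are given after their values were seen. Krt18 averaged 537 ± 204 in null livers and 1155 ± 25.8 in control livers (adjusted p = 0.0259), and Krt8 averaged 419 ± 115 in null livers and 729 ± 62.9 in control livers (adjusted p = 0.0442). Both calls were lost without any 1 control (adjusted p = 0.079, 0.106 and 0.0944 for Krt18 and 0.15, 0.125 and 0.123 for Krt8, in the order Control_8, Control_1192, Control_1193), and that of Krt8 also without Null_1191 (0.0688). That of Krt18 was lost with quantile normalization (0.0523) and with embryo sex as a term (0.0734) as well. That of Krt8 was lost in 9 of 16 alternatives in all, with adjusted p from 0.0549 to 0.15, while both of its other probe sets fell (adjusted p = 0.0256 and 0.0152). The 5 genes that fell are known from hepatocytes or from simple epithelia in general, and which cells held less of this RNA was not tested. Of the 16 that were not called, Prom1, Bicc1 and Ift88 had all 3 nulls above all 3 controls. That is 3 of the 21 genes, against 13.2% of all genes, so this upward count is near the background for this list. Prom1, a surface protein of hepatic progenitors and duct cells, read 294, 285 and 485 in Null_61, Null_1191 and Null_1195, against 187, 177 and 210 in Control_8, Control_1192 and Control_1193 (log2 change 0.76, adjusted p = 0.0523). Ift88, a transport protein of the primary cilium, averaged 152 ± 25.4 in null livers and 100 ± 4.82 in control livers (log2 change 0.47, adjusted p = 0.0801). Bicc1, an RNA-binding protein whose loss gives cysts in mouse kidneys, averaged 269 ± 52.8 in null livers and 194 ± 23.2 in control livers (log2 change 0.40, adjusted p = 0.18). Prom1 and Ift88 rose when genes in place of probe sets were tested, each as the mean of its probe sets, with the log2 change unaltered (adjusted p = 0.0348 and 0.0374). Epcam, a marker of hepatoblasts and duct cells, averaged 508 ± 89.3 in null livers and 431 ± 46.7 in control livers (adjusted p = 0.466), and Cftr, the chloride channel of duct cells, averaged 20.4 ± 11.2 in null livers and 18.6 ± 1.83 in control livers (adjusted p = 0.953).

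**Figure D4:**
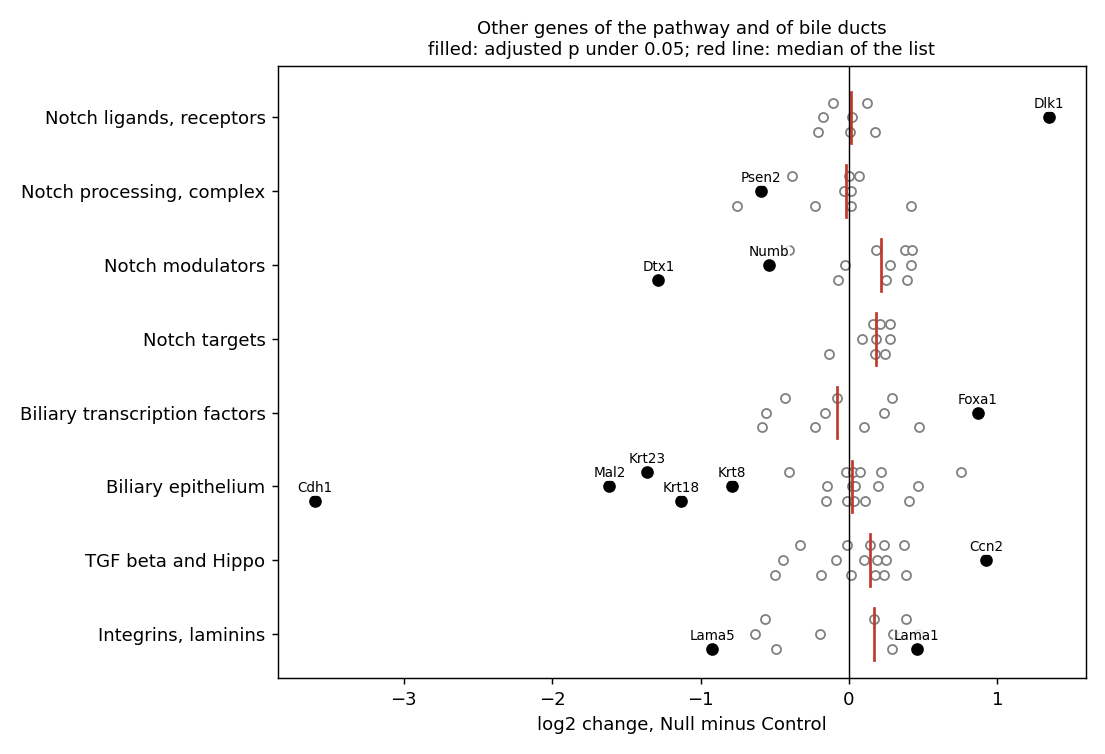
Log2 change, null minus control, of other genes of the Notch pathway and of bile ducts, by list. Filled points passed the test and are named, open points did not, and red lines are list medians, which lie between -0.08 and 0.22.

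Of 17 genes of TGF beta and Hippo signalling, which act on the ductal plate, 1 rose and 0 fell, with a median of 0.14. Ccn2, a matrix-associated target of both pathways, read 231, 252 and 349 in Null_61, Null_1191 and Null_1195, against 117, 129 and 143 in Control_8, Control_1192 and Control_1193 (1.90-fold, adjusted p = 0.00874). Of 11 integrin and matrix receptor or laminin genes, among them receptors of osteopontin, 1 rose and 1 fell, with a median of 0.17. Lama5, the alpha chain of epithelial laminins, averaged 147 ± 8.77 in null livers and 311 ± 59.7 in control livers (adjusted p = 0.00659), but its 2 other probe sets were not called and had means of 205 ± 2.32 and 118 ± 12.7 in null livers, against 200 ± 24.8 and 93.5 ± 17.1 in control livers. Lama1, the laminin chain deposited first around ducts, read 105, 95.9 and 107 in the nulls and 65.6, 69.4 and 63.0 in the controls (log2 change 0.46, adjusted p = 0.0469). Its call was lost without any 1 of the 6 arrays, with adjusted p from 0.0583 to 0.155, and over all alternatives that ended it from 0.0537 to 0.155. Groups did not overlap in 13.2% of all genes upward and 17.9% downward. Modulators had 4 of 12 higher and 3 lower, and integrins and laminins 4 of 11 higher and 3 lower. Processing genes had 1 of 10 higher and 3 lower, and duct transcription factors 2 of 11 and 1. Ligands and receptors had 1 of 8 higher and 0 lower, duct epithelium 3 of 21 and 5, and TGF beta and Hippo 3 of 17 and 1. These counts were not tested.

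Several of these transcripts are also made outside the duct lineage, and some markers of such cells passed the test (those named here were picked after their values were seen). Of 12 mesenchymal and smooth muscle markers, a source of Jag1, 1 rose (Postn) and 0 fell, the median was 0.40, and their intensities summed to 6728 in Null_61, 4175 in Null_1191 and 4341 in Null_1195, against 3134 to 4169 in control livers. The null sums other than that of Null_61 lay close to the highest control, and the list's median log2 difference from the control mean was 0.59 for Null_61, 0.22 for Null_1191 and 0.18 for Null_1195. Of 10 endothelial markers, another source of Jag1 and Notch2, 0 rose and 3 fell (Kdr, Tek and Stab2), the median was -0.33, and the sum was 1813 to 2240 in null livers and 2506 to 2777 in control livers. Of 8 mesothelial markers, which belong to cells that share keratins with ducts, 1 rose (Wt1) and 1 fell (Upk1b), the median was -0.06, with sums of 899 to 1490 in null livers and 811 to 1352 in control livers. Macrophage markers had 3 of 10 higher (Adgre1, Clec4f and Timd4) and 0 lower with a median of 0.56 (sums 10269 in Null_61, 6437 in Null_1191 and 6594 in Null_1195, against 4690 to 5286 in control livers), and megakaryocyte markers 0 of 7 higher and 4 lower (Pf4, Itga2b, Gp1bb and Treml1) with a median of -0.61 (sums 3886 to 4509 in null livers, 5571 to 7649 in control livers). Of 8 erythroid and 7 exocrine pancreas markers 0 passed, with medians of 0.13 and -0.10, and sums of 20322 to 20828 and 2855 to 3118 in null livers against 17749 to 19041 and 2848 to 3127 in control livers. With the mean of each gene's probe sets 5 endothelial, 4 macrophage and 5 megakaryocyte markers passed, in the same directions, and 0 mesothelial markers fell. Of 8 hepatocyte markers 7 fell and 0 rose, with a median of -0.87 (sums 38708 to 43543 in null livers, 63662 to 65532 in control livers). Asgr1, the hepatocyte asialoglycoprotein receptor, averaged -0.726 ± 2.49 in null livers and 677 ± 52 in control livers (SD, n = 3 each), and every other marker of these lists averaged above 0 in both groups. Groups did not overlap in 8 of 10 macrophage, 5 of 12 mesenchymal and 3 of 8 erythroid markers, all higher. The same held for 7 of 8 hepatocyte, 6 of 7 megakaryocyte and 5 of 10 endothelial markers, all lower. Mesothelial markers had 1 higher and 1 lower, and pancreas markers 1 higher and 2 lower. Among all genes 13.2% did so upward and 17.9% downward. The part of these cells in the readings of the bile duct genes was not tested.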

How the data were processed

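The authors deposited 1 intensity per probe set and array on a linear scale, with 0.909% to 1.34% of each array's values below 0. Per the labels' protocols, biotin-labelled target was run on Affymetrix arrays in the maker's usual way. The software that summarised, background-corrected and scaled the probes is not stated there. Each of the 6 samples is 1 array.

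The test ran on log2(intensity + 32) with negative intensities raised to 0. Array medians on this scale differed by at most 0.0877, so no further normalization was done. All probe sets but 64 array controls (45037) were fitted with limma 3.58.1 in R 4.3.3 (lmFit, eBayes with an intensity trend), two-sided, with Benjamini-Hochberg adjustment and a threshold of 0.05. No exact permutation p is printed, because 0.1 is the smallest that 3 against 3 arrays allow. Simulated data with known changes were used to test the fit beforehand.

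The 10 genes, 8 context lists and 8 marker lists were chosen with earlier results of these data known. The naming rule takes all members, Hnf4a, and up to 3 called genes of each context list with the smallest adjusted p, plus 1 of the opposite direction. Nrarp, Rbpj, Onecut1, Tbx3, Prom1, Ift88, Bicc1, Epcam, Cftr, Krt8, Krt18 and the markers of other cells lie outside it and were named after their values were seen. Genes of similar profile were to be named only for called members, and there were none. In the lists a gene is its brightest probe set with 1 symbol. List genes without such a probe set were not analysed here. The number of arrays limits the precision.

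Alternatives were quantile normalization, centred array medians, a pseudocount of 1 or 100, a filter on level, no intensity trend, array weights, a block for the number run, the second run alone, embryo sex (from Xist and Y-linked probe sets) as a term, each array left out, and the mean of a gene's probe sets.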

Additional observations from a re-analysis of the deposited data

How the results depend on the processing

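No member was called in the fit reported, and of 322 values of member probe sets under 16 alternatives 312 had the sign of the reported value and 4 passed the threshold: Sox9 1433889_at with array weights (-0.51), the number run as a block (-0.48) or without Null_61 (-0.57), and Sox4 1419156_at with the block (0.47). So 1 member probe set rose with the block, and 1 fell with the block, with array weights and without Null_61, the range over arrays left out being 0 to 1. The 10 values with the sign turned were all close to 0 and uncalled: Notch2 1455556_at with quantile normalization (0.044), without Null_1191 or Control_8 (-0.29 to 0.086 over single arrays left out), Notch2 1451889_at in the second run alone (-0.0062) and without Null_61 (-0.0061 to 0.066), Elf3 in the second run alone (-0.10) and without Control_8 (-0.012 to 0.37), Sox4 1443778_at without Null_1191 or Control_8 (-0.025 to 0.40), and Sox4 1455867_at without Control_1193 (-0.0046 to 0.15). The brightest probe set of each member alone also gave 0 calls. Over all probe sets, 1181 rose and 2138 fell with quantile normalization, in place of 658 and 2501. The number that rose was 1558 with array weights, 1865 with the block, 1143 in the second run alone, 366 with embryo sex as a term and 211 (without Control_1192) to 1499 (without Null_61) with 1 array left out, where the number that fell was 1534 to 3197. The cause of these shifts was not tested. With the mean of a gene's probe sets, tested over genes, 0 genes of Notch processing fell (Psen2 was lost), 1 modulator rose (Poglut1) and 1 fell (Numb was lost), 1 duct transcription factor fell (Hhex), 2 genes of duct epithelium rose (Prom1 and Ift88) and 0 integrin or laminin genes fell (Lama5 was lost). Among markers of other cells, endothelial Tie1 and Lyve1, macrophage Cd5l and megakaryocyte Gp5 and Ppbp were gained, and Upk1b and Gp1bb lost. Of all genes gained in this way, only Lyve1 had a log2 change other than that of its brightest probe set. For the rest only the fit and adjustment over genes differed. No paired analysis was possible because the groups share no replicate number. The alternatives for Hnf4a and for the called genes of the lists, and the intervals with a pseudocount of 1, were chosen after seeing the data. The filter on level leaves out the dim member probe sets. Signal over background limits what can be seen for the 12 member probe sets with both means at or below the highest array median.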
